A study of Mus musculus with 2 samples.

Results

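The CDC25 phosphatases, the kinases that oppose them, the checkpoint kinases that restrain them and the pair of cyclin E and CDK2 were examined as a group of 10 genes. The members were given by name, with no threshold on a measured value: *Cdc25a*, *Cdc25b*, *Cdc25c*, *Wee1*, *Pkmyt1*, *Chek1*, *Chek2*, *Ccne1*, *Ccne2* and *Cdk2*. Every non-control probe named for one of them in the array files, or through its current RefSeq symbol, was used. This gave 19 of the 41164 probes with a value. They stand for 10 of 27790 genes or transcripts.

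RNA of the dormant DMC-derived line B16F1-GFP-D (line D) was compared with RNA of its maternal line B16F1-GFP-M (line M) on 2-colour Agilent arrays, where each line's RNA carries its own dye and both compete for every spot. Both lines are GFP-labelled derivatives of the mouse melanoma B16F1, and both were grown without treatment in the same serum-containing medium. B16F1-GFP-D goes back to 1 colony that grew from GFP-positive cells sorted 1 year after challenge from pooled organs of control and immunised tumour-free mice, so that it stands for 1 clone. There were 2 arrays on 1 slide: array 1 held line D in Cy3 and line M in Cy5, and on array 2 the dyes were exchanged. Separate cultures or extracts are not named in the labels, so there was 1 replicate per line and no test between the lines was made. The standard deviation (SD) given below is that between the 2 arrays, which holds dye effects and no variation between cultures. More cycling cells and more transcript per cell cannot be told apart in such bulk RNA.

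A spot was called well above background by the scanner software, and a gene was called detected when, on both arrays, its brightest probe was so in 1 line or in both. Of the genes on the arrays, 12539 were detected, and their log2 ratios on the 2 arrays had a pooled SD of 0.15. Between 44.1% and 60.7% of spots were well above background per line and array, and no spot was saturated. All 8 genes of a melanocyte marker list were detected, with a median log2 ratio of -0.14 and none past 2-fold on both arrays. In the lists for other cell types, 1 of 7 fibroblast, 2 of 6 leukocyte, 2 of 4 brain, 0 of 4 endothelial, 0 of 5 epithelial and 0 of 3 liver genes were detected. None of these differed by 2-fold on both arrays.

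Cyclin-dependent kinases are held inactive by phosphates that the kinases WEE1 and PKMYT1 place next to the ATP-binding site, and the CDC25 phosphatases take these phosphates off. Cyclin E binds CDK2 late in G1 and starts S phase, and cyclin A and cyclin B take over in S phase, G2 and mitosis. When replication stalls or DNA is broken, ATR and ATM switch on CHEK1 and CHEK2, which phosphorylate CDC25 proteins and mark them for destruction or for binding by 14-3-3 proteins. Most of this control acts on the proteins, which arrays do not measure. Cell cycle progression and its block are central to the study because the founder cell of line D had been dormant.

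The transcripts of 9 of the 10 members were detected, and all 9 were higher in line D than in line M on both arrays. Of all detected genes, 41% were higher on both arrays. The median log2 ratio of the 9 was 0.83, against -0.01 for all detected genes, and each was measured well above background in line D and in line M, on array 1 as on array 2. The differences were mostly under 2-fold: *Ccne1* and *Cdc25c* were at least 2-fold higher on both arrays, which is 2 of 9 against 3.09% of all detected genes. No member was at least 2-fold lower on both arrays, against 1.94%, and none reached 3-fold higher, against 0.59%. *Wee1* was not detected, and with it at its measured value the median over all 10 was 0.82.

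**Figure D1:**
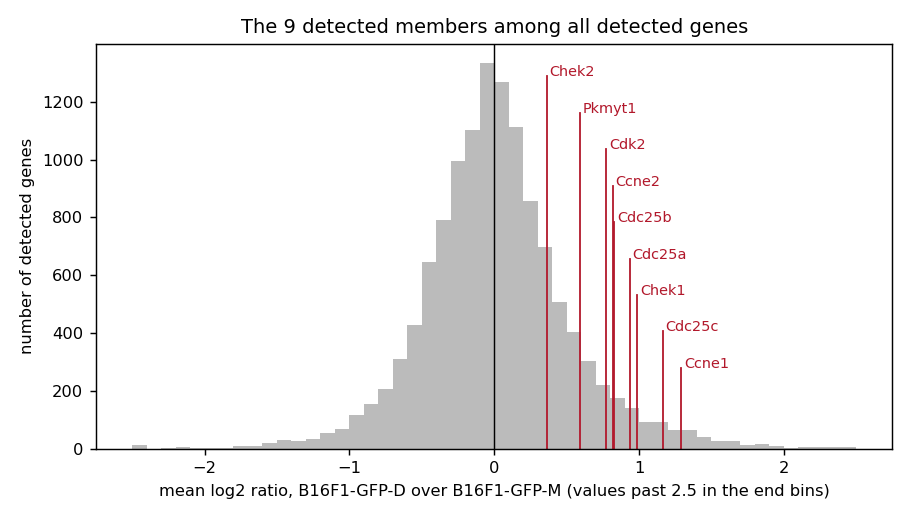
Mean log2 ratio of line D over line M on the x axis and number of detected genes on the y axis, for 12539 genes, with values past the axis limits placed in the end bins. Red lines mark the 9 detected members, which lie between 0.36 for *Chek2* and 1.29 for *Ccne1*, all to the right of 0; the height of a line has no meaning.

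With an offset of 50 in the background correction, the order of the mean log2 ratios was *Ccne1*, *Cdc25c*, *Chek1*, *Cdc25a*, *Cdc25b*, *Ccne2*, *Cdk2*, *Pkmyt1* and *Chek2*. Neighbours in this order were mostly not separated: the values of the 2 arrays overlapped in 5 of the 8 neighbouring pairs. They did not overlap between *Ccne1* and *Cdc25c*, between *Cdk2* and *Pkmyt1*, or between *Pkmyt1* and *Chek2*. The nearest values were close even so, 1.25 for *Ccne1* and 1.22 for *Cdc25c*, and 0.72 for both *Cdk2* and *Pkmyt1*. Only 232 detected genes had a higher mean than *Ccne1*, and 330 had a higher mean than *Cdc25c*. The order changed with the background correction: in the scanner software's ratios *Chek1* had 1.92, *Cdc25c* 1.59 and *Ccne2* 1.48 against 1.30 for *Ccne1*, and without the offset *Chek1* had 1.61 and *Cdc25c* 1.49 against 1.28.

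Sequences before the transcription start are shown for 4 members, for *Ccne1* because both of its probes were past 2-fold on both arrays, and for *Cdc25a*, *Cdk2* and *Chek2* because they held letters of the E2F motif. They are the 250 bases before the start in RefSeq, build GRCm38.p6, written 5′ to 3′ along the gene's strand. Capitals mark the E2F letters TTTCCCGC, TTTGGCGC, TTTCGCGC or TTTGCCGC and the CCAAT letters, searched on both strands, so that GCGGGAAA and ATTGG are the same motifs on the opposite strand. E2F is the family of transcription factors that drives genes of S phase entry, and CCAAT is the box that NF-Y binds. The regions are chr9:109875329-109875578 on the plus strand for *Cdc25a*, chr10:128705052-128705301 on the minus strand for *Cdk2*, chr5:110839733-110839982 on the plus strand for *Chek2* and chr7:38107491-38107740 on the minus strand for *Ccne1*.
Cdc25a: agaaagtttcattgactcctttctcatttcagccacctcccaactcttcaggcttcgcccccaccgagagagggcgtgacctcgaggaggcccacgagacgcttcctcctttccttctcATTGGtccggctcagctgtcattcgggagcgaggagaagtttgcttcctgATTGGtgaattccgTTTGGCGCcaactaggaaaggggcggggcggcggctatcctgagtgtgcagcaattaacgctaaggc
Cdk2: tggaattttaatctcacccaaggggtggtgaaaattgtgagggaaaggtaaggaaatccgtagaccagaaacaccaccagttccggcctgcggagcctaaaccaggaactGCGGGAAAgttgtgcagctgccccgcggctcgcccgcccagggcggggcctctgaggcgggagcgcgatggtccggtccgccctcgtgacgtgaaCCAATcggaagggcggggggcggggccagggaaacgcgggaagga
Chek2: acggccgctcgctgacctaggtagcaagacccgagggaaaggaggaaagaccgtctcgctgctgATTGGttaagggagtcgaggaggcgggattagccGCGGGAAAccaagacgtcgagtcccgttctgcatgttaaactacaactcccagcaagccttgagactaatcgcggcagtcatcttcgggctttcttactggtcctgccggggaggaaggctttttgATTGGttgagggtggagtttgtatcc
Ccne1: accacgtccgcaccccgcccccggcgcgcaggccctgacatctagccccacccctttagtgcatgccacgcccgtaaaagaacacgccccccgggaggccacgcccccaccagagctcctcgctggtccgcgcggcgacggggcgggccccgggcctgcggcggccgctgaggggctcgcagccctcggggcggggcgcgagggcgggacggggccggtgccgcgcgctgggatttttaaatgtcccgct

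In *Cdc25a* the E2F letters lay 67 to 60 bases before the start, between CCAAT letters on the opposite strand and the start itself. In *Cdk2* they lay 140 to 133 bases before it and in *Chek2* 152 to 145 bases before it, in both cases on the opposite strand. Promoter windows reaching 50 bases past the start were at hand for 6 members: these 4, *Cdc25b* and *Chek1*. The E2F letters were in 3 of the 6, against 2.26% of 32851 windows of the same length. CCAAT was in 4 of the 6, against 37.4%, the fourth being *Cdc25b*. The letters TTTGAA or TTCGAA, which form the CHR element of genes expressed in G2 and mitosis, were in *Cdc25b* alone, 8 to 13 bases after the start, against 19.2% of windows. The windows of *Ccne1* and *Chek1* held none of these letters. A match of letters is not a bound site, and whether the letters go with the ratios was not tested.

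Among the phosphatases, *Cdc25c* had the largest ratio. CDC25C removes the inhibitory phosphates from CDK1 at the entry into mitosis. The log2 intensity of its brightest probe was 8.59 in line D against 7.48 in line M on array 1, and 8.83 against 7.61 on array 2. Both values of line D thus lay above both values of line M. The log2 ratio was 1.16 ± 0.09 (SD, 2 arrays), or 2.24-fold. A second, dimmer probe gave 0.68 on both arrays, so that with the median of both probes *Cdc25c* was not past 2-fold.

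*Cdc25a* encodes the phosphatase of CDK2 at the entry into S phase, which also acts later in the cycle, and is one of the genes that the study went on to follow in brain-derived cells. Its brightest probe, at chr9:109795020-109795082 of mm9, had a log2 intensity of 9.71 in line D against 8.83 in line M on array 1, and of 9.77 against 8.77 on array 2. The lines did not overlap. Its log2 ratio was 0.87 on array 1 and 1.00 on array 2, with a mean of 0.94 ± 0.09. The second probe lies about its own length further along the chromosome, and its values of 0.75 and 0.77 were close to each other. Without the offset in the background correction both probes came to the same size, 1.04 and 1.02, and in the scanner software's own ratios to 1.06 for each.

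*Cdc25b* encodes the phosphatase that starts the activation of CDK1 in G2. The brightest probe had a log2 intensity of 10.80 in line D against 10.11 in line M on array 1, and of 10.99 against 10.01 on array 2. It was higher in line D on both arrays, with a mean log2 ratio of 0.83 ± 0.21. Its 3 probes differed in how well the arrays repeated. A second bright probe, at chr2:131024109-131024165 of mm9 and close to the first, had the same mean of 0.83, but from 1.12 on array 1 and 0.54 on array 2. The last of its probes, at chr2:131018363-131018422 and near background, had 0.03 and 0.45. The size of the *Cdc25b* difference is therefore less well measured than its direction.

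The differences between the phosphatases were small beside their own size. The log2 ratio of *Cdc25c* exceeded that of *Cdc25a* by 0.23 on array 1 and by 0.22 on array 2. It exceeded that of *Cdc25b* by 0.42 and 0.25. With their second probes included, however, the probes of *Cdc25c* spanned 0.68 to 1.16 and those of *Cdc25a* 0.76 to 0.94, so that the order of these genes depends on the probe.

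**Figure D2:**
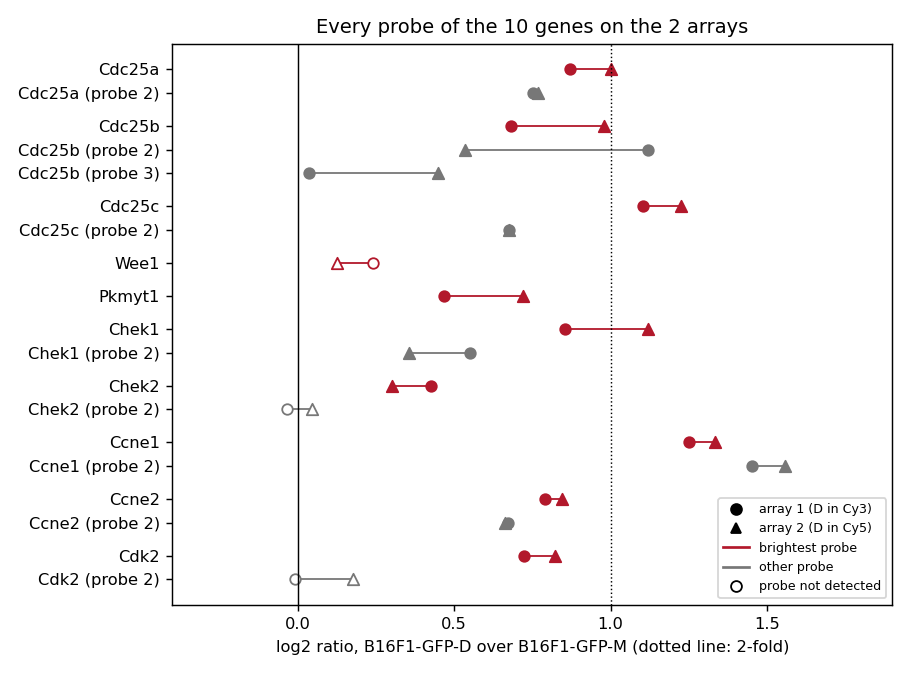
Log2 ratio of line D over line M on the x axis for each of the 19 probes of the 10 genes, as a circle for array 1 and a triangle for array 2 joined by a line. Filled points to the right of 0 are the 16 detected probes, all higher in line D on both arrays. Of these, 3 (both of *Ccne1* and 1 of *Cdc25c*) lie beyond the dotted 2-fold line on both. For 14 of the 16, line M as well as line D was clearly above background each time. The remaining filled probes, 1 each of *Ccne2* and *Cdc25b*, were so in line M on 1 array only. On the other array they counted as detected through line D alone, which favours ratios above 0. The open points are 1 probe each of *Wee1*, *Chek2* and *Cdk2*.

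Of the kinases that counter the phosphatases, only *Pkmyt1* was detected. It encodes the membrane-bound kinase that holds CDK1 inactive, and was measured by 1 probe on chromosome 17. Its log2 intensity was 10.77 in line D against 10.31 in line M on array 1, and 11.06 against 10.34 on array 2. The lines did not overlap, and the log2 ratio was 0.59 ± 0.18, or 1.51-fold. *Pkmyt1* was bright, 31.8 to 53.3 times its local background, and hardly moved with the background correction.

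*Wee1*, which encodes the nuclear kinase of the same inhibitory site, gave no usable comparison. Its only probe, at chr7:117283161-117283220 of mm9, was not well above background in line M on either array and was so in line D on 1 array, the one where that line was in Cy5. Log2 intensities were 6.42 against 6.17 on array 1 and 6.49 against 6.37 on array 2. The lowest level of any probe well above background lay between 5.95 and 6.43 by line and array, so these values are at the limit of the measurement. The log2 ratios of 0.24 and 0.12 are given as values, and no balance of *Wee1* against the phosphatases can be drawn from them.

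Of the checkpoint kinases, *Chek1* had the larger ratio. CHEK1 is the effector of ATR at stalled replication forks and is also needed in an undisturbed S phase. The brightest probe had a log2 intensity of 7.62 in line D against 6.76 in line M on array 1, and of 8.01 against 6.89 on array 2. The lines did not overlap, and the log2 ratio was 0.99 ± 0.19. The signal was dim, 2.45 to 5.80 times the local background, and the value moved most of all members with the processing. It was 1.61 without the offset and 1.92 in the scanner software's ratios. A second *Chek1* probe, close to the first on the chromosome, gave 0.45 with the offset and 1.21 in the scanner software's ratios.

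*Chek2* encodes the effector of ATM at double-strand breaks. Its brightest probe had a log2 intensity of 7.60 in line D against 7.18 in line M on array 1, and of 7.57 against 7.27 on array 2. The log2 ratio was 0.36 ± 0.09, or 1.29-fold, the lowest among the detected members with the offset. In the scanner software's ratios it was 0.62, against 0.59 for *Pkmyt1*. The second probe had log2 ratios of -0.03 and 0.05. It was well above background only in the Cy5 channel of each array, whichever line that channel held. The log2 ratio of *Chek1* exceeded that of *Chek2* by 0.43 on array 1 and by 0.82 on array 2. The gap was larger than its SD of 0.28, but the dimmer *Chek1* probe, at 0.45, lay near the brighter *Chek2* probe, at 0.36.

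*Ccne1*, which encodes cyclin E1, had a ratio that hardly moved with the background correction. It had a log2 intensity of 12.72 in line D against 11.47 in line M on array 1, and of 12.78 against 11.44 on array 2. The lines were far apart beside the spread of each line between arrays. The log2 ratio was 1.29 ± 0.06, or 2.45-fold, from a probe 61.8 to 186.8 times as bright as its background. The second probe, for which the array file gives the same interval on chromosome 7, had 1.45 and 1.56. *Ccne1* was past 2-fold on each array used in 9 of 10 alternative ways of processing at that threshold. The exception was median centring without loess, where its mean was 1.5 but the arrays differed. Several of the 9 could not change the call. The changed detection filters keep its values, and each array alone was already past 2-fold. The value table repeats the scanner software's ratios.

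*Ccne2*, which encodes the other E-type cyclin, was dimmer and differed less. Log2 intensities were 7.67 in line D against 6.88 in line M on array 1, and 7.93 against 7.08 on array 2. The log2 ratio was 0.82 ± 0.04, and 0.67 in the second probe, which was well above background in line M on 1 array only. With the offset, *Ccne1* exceeded *Ccne2* by 0.46 on array 1 and by 0.49 on array 2, or 0.47 ± 0.02. That order turned with the background correction: in the scanner software's ratios *Ccne2* had 1.48 and *Ccne1* 1.30, and without the offset they had 1.26 and 1.28. The order of both E-type cyclins is thus not settled by these arrays, whereas both were higher in line D throughout.

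*Cdk2*, the kinase that cyclin E activates, had log2 intensities of 8.22 in line D against 7.49 in line M on array 1, and of 8.55 against 7.73 on array 2. It was higher in line D on both arrays, with a log2 ratio of 0.77 ± 0.07, or 1.71-fold. This rests on 1 probe, at chr10:128140817-128140876 of mm9. The other *Cdk2* probe, at chr10:128135214-128135273, was not well above background in either line, and its log2 ratios were -0.01 and 0.18. With the offset, the log2 ratio of *Ccne1* exceeded that of *Cdk2* by 0.52 ± 0.01. The size of this gap depends on the background correction. In the scanner software's ratios *Ccne1* had 1.30 and *Cdk2* 1.02, and without the offset they had 1.28 and 1.00.

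**Figure D3:**
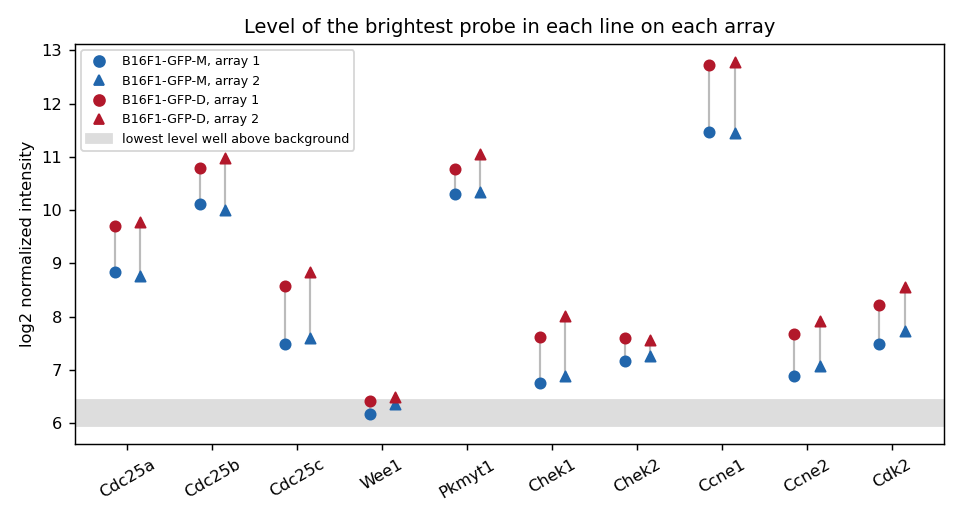
Log2 normalized intensity of the brightest probe of each gene on the y axis, in line M (blue) and line D (red), with circles for array 1 and triangles for array 2; the grey band spans the lowest levels well above background, 5.95 to 6.43. In each gene both red points lie above both blue points, but those of *Wee1* lie in or next to the band; heights are not comparable between genes, since probes differ in how strongly they bind.

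The direction of the 9 detected members was the same in all 10 alternatives at the 2-fold threshold, and their sizes were not. Several alternatives could not turn the direction. The changed detection filters leave the values as they are, each array alone was already above 0, and the value table repeats the scanner software's ratios. The dim genes moved most. With the scanner software's ratios, 6 of the 9 were past 2-fold on both arrays, against 6.05% of all detected genes: *Cdc25a*, *Cdc25c*, *Chek1*, *Ccne1*, *Ccne2* and *Cdk2*. With an offset of 0 in place of 50, the same genes without *Cdk2* were, 5 of the 9 against 5.06%. The offset adds a constant to each intensity and draws the ratios of dim spots towards 0, which the scanner software does not do. *Cdc25b*, *Pkmyt1* and *Chek2* were past 2-fold on both arrays in none of these. At 1.5-fold on both arrays 7 of the 9 passed, against 8.77% of all detected genes, the exceptions being *Pkmyt1* and *Chek2*.

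**Figure D4:**
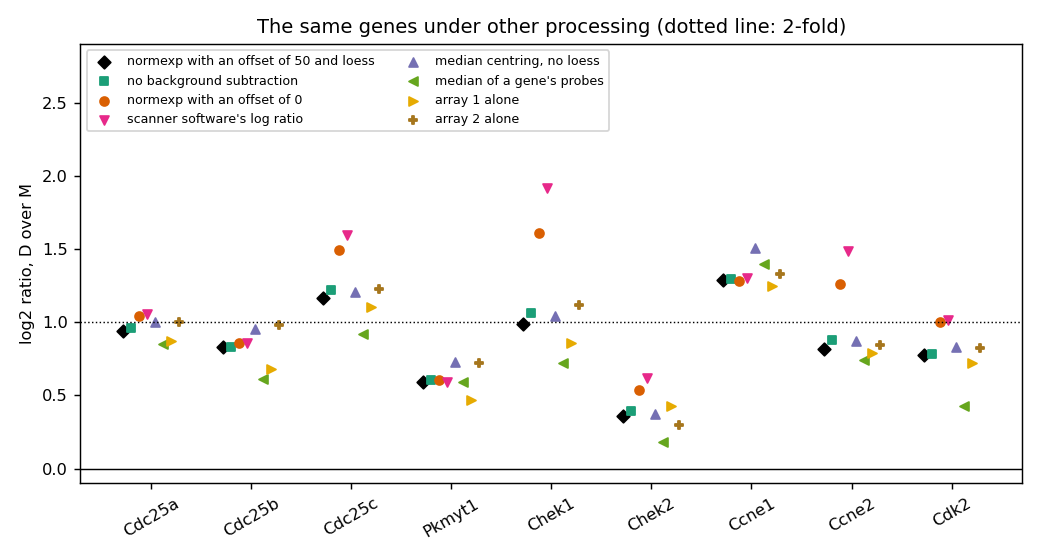
Log2 ratio of line D over line M on the y axis for the 9 detected genes under 8 ways of processing, one symbol each; the dotted line marks 2-fold. All points lie above 0; those of *Ccne1* stay between 1.25 and 1.5, while those of *Chek1* run from 0.72 to 1.92 and those of *Cdk2* from 0.43 to 1.02.

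The genes that act together with the members were read from lists by role. Of all detected genes, 3.09% were at least 2-fold higher on both arrays and 1.94% lower. These shares belong beside the counts of every list below, and a short list without calls lies near them. Among 11 partners and activators of CDK1 and CDK2, 6 were at least 2-fold higher in line D on both arrays and none lower, with a median log2 ratio of 1.19. They included *Cdkn3* with 1.84, *Cdk1*, the mitotic kinase, with 1.65, and *Cks2*, a small CDK-binding subunit, with 1.51. The others were the cyclin genes *Ccnb2* with 1.36, *Ccnb1* with 1.26 and *Ccna2* with 1.19. *Cdkn3* encodes a phosphatase of CDKs and stands in the list as a partner, not as an activator. With the median of its probes *Cdk1* had 0.91. Not all of the list rose: the ratios of 3 genes were below 0 on both arrays and did not reach 2-fold, the lowest being -0.85.

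The CDK inhibitors that bind the complex of cyclin E and CDK2 did not pass 2-fold with the offset. *Cdkn1a*, which encodes p21CIP1, had log2 ratios of -0.82 and -0.73 on the 2 arrays. *Cdkn1b*, which encodes p27KIP1, had -0.88 and -0.77. Both were below 0 on both arrays, opposite in sign to *Ccne1*, *Ccne2* and *Cdk2*. The third inhibitor of the list, *Cdkn1c*, was well above background in line M on 1 array only, and had a mean of 0.42. Without the offset it had 0.94, and in the scanner software's ratios 1.55, where 1 of the 3 inhibitors was past 2-fold on both arrays. In those ratios 6.05% of all detected genes were at least 2-fold higher on both arrays.

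On the side of ATR, which senses stalled forks and activates CHEK1, 4 of 14 genes were at least 2-fold higher on both arrays and none lower, with a median log2 ratio of 0.52. They were *Rpa2* with 1.60 and *Rpa1* with 1.34, which encode subunits of the single-strand binding protein RPA, *Topbp1*, an activator of ATR, with 1.24, and *Timeless*, a component of the replication fork, with 1.22. *Atr* itself had -0.19. *Clspn*, which encodes the adaptor between ATR and CHEK1, had 0.48 with the offset and 2.06 in the scanner software's ratios, and was well above background in line M on 1 array only. On the side of ATM, which senses double-strand breaks and activates CHEK2, none of the 7 detected genes passed 2-fold; their log2 ratios lay between -0.07 and 0.53, with a median of 0.19 and *Atm* at 0.32. Whether the lists differ was not tested.

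None of the 9 genes of the ubiquitin ligases that mark CDC25A, WEE1 or cyclin E for destruction was past 2-fold on both arrays, with a median log2 ratio of 0.18. *Fbxw7*, the subunit that recognises cyclin E, had -0.31. In a list of other regulators of CDC25, WEE1 and PKMYT1, 17 of 19 genes were detected and 3 passed 2-fold, all higher in line D. These were *Plk1*, the mitotic kinase that activates CDC25C and marks WEE1 for destruction, with 1.49, *Aurka*, which activates PLK1, with 1.37, and *Melk* with 1.23. With the median of its probes *Melk* had 0.65. The median of this list was 0.52.

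**Figure D5:**
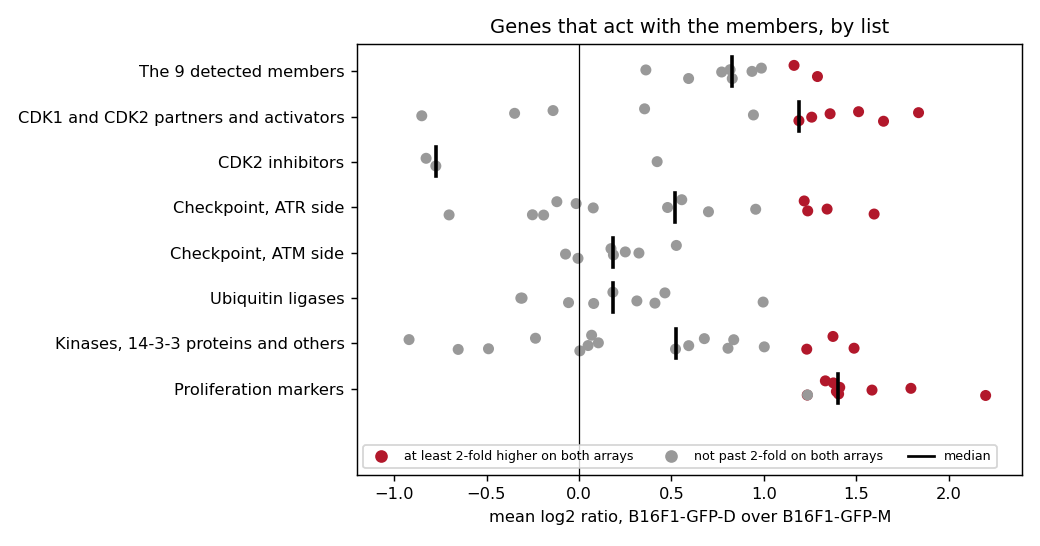
Mean log2 ratio of line D over line M on the x axis for each detected gene of the lists, 1 point per gene, with vertical scatter added for legibility and a black bar at each median. Genes at least 2-fold higher on both arrays are red, and none was 2-fold lower; the median is 0.83 for the members, 1.19 for the partners and activators, -0.77 for the CDK2 inhibitors and 1.40 for the proliferation markers.

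General markers of proliferation moved with the members. All 10 genes of a marker list were higher in line D on both arrays, with log2 ratios between 1.24 and 2.20 and a median of 1.40, and 9 of them were at least 2-fold higher on both. With median centring in place of loess, 1 of these 10 markers was past 2-fold on both arrays. Of the partners and activators, the ATR side and the other regulators 0 were. In that setting only 0.359% of all detected genes were at least 2-fold higher on both arrays. The medians of the markers and of these lists were then, in that order, 1.62, 1.34, 0.54 and 0.57. *Mki67* had 1.38 and *Pcna* 1.80. The part of proliferation in the values of the members was not tested. In its own cell cycle analysis, the study reported a higher proportion of line D than of line M cells in G0/G1. That analysis used flow cytometry of cells transfected with siRNA, so neither its measure nor its treatment is that of the arrays. With 1 replicate per line, a difference between the lines cannot be told apart from one in the state of the cultures at harvest.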

How the data were processed

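Spot intensities and local background intensities were deposited by the authors as measured with Agilent Feature Extraction 10.7.3.1. The log10 ratios of Cy5 over Cy3 and the series value table, a rounded copy of them (column medians 0 and 0, direction not turned for the dyes, no centring of genes), come from intensities that the authors' software had background-subtracted and scaled between dyes. The deposited flags gave outlier spots and spots well above background.

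In R 4.3.3 with limma 3.58.1, mean signals were corrected by normexp with an offset of 50 on the median local background and normalized by loess within arrays; outlier spots, 143 and 176, were left out. Ratios were turned to log2 of line D over line M and spots of a probe averaged. Intensities per line were scaled between arrays by Aquantile. A gene was read from its brightest probe. Of the probes, 27192 matched the RefSeq table of GRCm38.p6, used for names and promoters. The array files give probe positions on mm9; exons and UTRs were not analysed here. Calls are a rule of size, 2-fold on each array, with no test, since there is 1 replicate per line. Named were all members, all called list genes and some fixed regulators. Members and lists were chosen with earlier results of these data known. On simulated arrays, 58% of 100 probes changed 3-fold and 84% of 100 changed 4-fold were called, all had the right sign, and 0 of 40974 unchanged probes were called. The 40974 include a few probes without a value on an array, which could not be called. The simulation held random noise but no dye effects of single probes and no variation between cultures. The last count therefore says nothing about false calls from these.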

Additional observations from a re-analysis of the deposited data

How the results depend on the processing

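The ratio of no detected member fell below 0 under any alternative run, several of which could not turn a sign. The count of members past 2-fold on both arrays was 2 of 9, against 3.09% of all detected genes that were higher in line D. It was 5 with an offset of 0, against 5.06%, and 6 with the ratios of the scanner software, against 6.05%. The series value table likewise gave 6, against 6.04%. Summarising the probes of a gene by their median left 1, against 2.45%, and median centring left 0, against 0.359%. The count was 7 at 1.5-fold, against 8.77%, and 0 at 3-fold, against 0.59%. Array 1 alone gave 2, against 2.85%. Array 2 alone gave 4 of 10, against 3.4%, the additions being *Cdc25a* and *Chek1*. The median of the members, 0.83, was 1.04 with an offset of 0. It was 1.06 with the ratios of the scanner software and, likewise, 1.06 with the value table. With array 1 alone it was 0.79. With array 2 alone it was 0.91 over 10 genes, since *Wee1* counted as detected there, and 0.98 over the same 9. Of all genes, 630 were past 2-fold, against 1077 with an offset of 0, 1355 with the ratios of the scanner software, 1351 with the series value table, 64 with median centring, 1980 at 1.5-fold and 123 at 3-fold, and between 798 and 820 with 1 array alone. Fold thresholds set the counts by construction; the cause of the other changes was not tested. Of 90 values of single members under alternatives, 28 moved by more than the SD between the arrays. The 90 include those under changed detection filters, which could not move. They also include those of 1 array alone, which always lie within that SD of the mean of both arrays. Signal over background limits *Wee1*, *Chek1*, *Chek2* and *Ccne2* most. No paired analysis was possible because there is only 1 replicate of either line; with 1 slide, a slide block could not be fitted.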

Other observations

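The genes below were chosen after their values had been seen, and none was past 2-fold on both arrays. The CDK-activating kinase, which phosphorylates CDKs on their activation loop, did not move with the members: *Ccnh* had log2 ratios of -0.97 and -0.73 on the 2 arrays, *Cdk7* had -0.27 and -0.42, and *Mnat1* had -0.16 and -0.12. Its genes had several probes each, and with the median of the probes *Ccnh* had -0.30. The 14-3-3 proteins, which hold phosphorylated CDC25 proteins, differed among themselves. *Ywhae* had a mean log2 ratio of 1.00, *Ywhah* 0.84, *Ywhaq* 0.68 and *Ywhab* 0.59, whereas *Ywhag* had -0.49 and *Ywhaz* 0.05. *Sfn*, the isoform of epithelial cells, had 0.81 from its brightest probe and -0.02 with the median of its 3 probes. *Rad17*, which loads the checkpoint clamp on damaged DNA, had -0.86 and -0.55, opposite in sign to *Topbp1*, *Timeless*, *Rpa1* and *Rpa2*.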
